A study of Mus musculus with 6 samples.

Results

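The nuclear genome encodes most subunits of the mitochondrial respiratory chain, and their messenger RNA was compared between Gmppb-KO and wild-type C2C12 cells, a mouse line of skeletal muscle origin that is grown as myoblasts. Members were taken by name: protein-coding genes whose symbol starts with Nduf, Uqcr or Atp5, or with Cox followed by a digit of 4 to 8, together with Sdha, Sdhb, Sdhc, Sdhd and Cyc1. The rule found 95 of 54532 named genes, with 94 different symbols because Atp5o is listed on 2 rows, one of them with 0 counts in all 6 libraries. They comprise 7 core and 29 accessory subunits of complex I, 4 subunits of complex II, 9 of complex III, 11 common subunits and 3 muscle isoforms of complex IV, and 5 F1 and 12 Fo or stalk rows of complex V. The names also take in 8 assembly factors of complex I (Ndufaf1 to Ndufaf8), Atp5s and 6 other complex IV genes, namely the tissue-restricted Cox4i2, Cox6b2, Cox7b2, Cox8c and Ndufa4l2 and the supercomplex factor Cox7a2l. A filter on low counts kept 88 of the 95 for testing. The 7 that were not tested were Cox8b, Cox4i2, Cox6b2, Cox7b2, Cox8c, Ndufa4l2 and the second Atp5o row.

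The Gmppb-KO group holds 3 libraries from cells that received CRISPR/Cas9 plasmids with guides against exons 1 and 5 of Gmppb, were selected in puromycin and were grown out from single cells. The wild-type group holds 3 libraries of cells labelled wild-type with no treatment. Both genotypes had been cultured for 2 days before lysis. How many knockout clones were used, the medium, and whether libraries of a group came from separate cultures are things the sources used here leave unsaid, so the spread between libraries, and every p-value built on it, may be technical only. Total counts over named genes ran from 17616250 to 18566759 in Gmppb-KO libraries and from 16011021 to 17964344 in wild-type libraries. Gmppb itself had 20.6, 16.0 and 13.0 counts per 1000000 of the normalized library size (CPM) in Gmppb-KO replicates 1, 2 and 3, against 18.1, 20.9 and 23.9 CPM in wild-type replicates 1, 2 and 3 (log2 fold change -0.34 ± 0.26 SE, edgeR adjusted p = 0.459), and a count over the whole gene is a weak check of a deletion.

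Des, the intermediate filament gene of muscle cells, was expressed in both groups, while other muscle markers separated them. Of 7 myoblast markers tested, Myod1, Myog and Pax7 were lower in Gmppb-KO cells by the edgeR test (Myod1 log2 fold change -8.43 ± 0.27 SE, adjusted p = 9.82e-06). All 9 tested markers of differentiated muscle were lower, and their summed level was 7.03 to 10.9 CPM in Gmppb-KO libraries and 141 to 162 CPM in wild-type libraries. Myf5, of the same list, did not pass (log2 fold change 1.32 ± 0.46 SE, adjusted p = 0.168), with 29.2, 48.7 and 93.7 CPM in Gmppb-KO libraries, against 26.7, 29.4 and 12.9 CPM in wild-type libraries. Of 4 tested fibroblast markers, Dcn and Col1a1 were higher, with a summed level of the list of 2074 to 3264 CPM in Gmppb-KO libraries and 656 to 967 CPM in wild-type libraries. Most of this sum came from Col1a1 and Col3a1, and Pdgfra, which did not pass, had 1.42 ± 0.786 CPM in Gmppb-KO cells and 2.24 ± 0.596 CPM in wild-type cells (SD, n = 3 each). Lum and Thy1 were near or at 0. Of 3 tested adipocyte markers, Fabp4 and Lpl were higher, with a summed level of 37.7 to 76.3 CPM in Gmppb-KO libraries and 17.4 to 18.4 CPM in wild-type libraries, while Adipoq, Plin1, Cidea and Ucp1 had no counts. The part of these differences in the results on the respiratory chain was not tested. In bulk RNA, fewer cells of a type and less RNA per cell cannot be told apart.

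The respiratory chain sits in the inner mitochondrial membrane. Complexes I and II pass electrons from NADH and succinate to ubiquinone, complex III passes them to cytochrome c and complex IV to oxygen, and complex V, the ATP synthase, uses the resulting proton gradient to make ATP. A small set of subunits is made from mitochondrial DNA and the rest from nuclear genes, often regulated together by factors such as NRF1, GABP and the PGC-1 coactivators. In heart and skeletal muscle, complex IV exchanges 3 of its small subunits for muscle isoforms, Cox6a2 for Cox6a1, Cox7a1 for Cox7a2 and Cox8b for Cox8a, and the muscle forms appear as myoblasts differentiate.

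Because single genes stood out among the muscle isoforms and their common partners, the 250 bases before the annotated starts of Cox7a1, Cox8b, Cox6a1, Cox7a2 and Cox8a are shown (Cox6a2 is not among them), as given by RefSeq for build GRCm38.p6, 5′ to 3′ on the strand of the gene. Capitals mark the E-box CANNTG, the general site of Myod1 and related factors, and the motifs ACTTCCGG (a core of ETS factors such as GABP) and GCGCATGC (a core of NRF1), searched on both strands. The windows lie at chr7:30183921-30184170 (plus strand), chr7:140900447-140900696 (minus strand), chr5:115348959-115349208 (minus strand), chr9:79759854-79760103 (minus strand) and chr19:7217617-7217866 (minus strand).
Cox7a1: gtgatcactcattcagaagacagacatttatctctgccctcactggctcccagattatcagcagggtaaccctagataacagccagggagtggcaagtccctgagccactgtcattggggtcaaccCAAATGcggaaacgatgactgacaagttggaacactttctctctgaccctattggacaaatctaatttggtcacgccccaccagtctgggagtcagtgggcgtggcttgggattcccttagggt
Cox8b: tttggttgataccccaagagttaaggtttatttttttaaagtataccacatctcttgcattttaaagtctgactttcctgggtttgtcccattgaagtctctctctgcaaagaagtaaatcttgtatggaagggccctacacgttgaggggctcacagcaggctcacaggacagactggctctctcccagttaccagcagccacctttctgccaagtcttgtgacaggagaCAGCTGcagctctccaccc
Cox6a1: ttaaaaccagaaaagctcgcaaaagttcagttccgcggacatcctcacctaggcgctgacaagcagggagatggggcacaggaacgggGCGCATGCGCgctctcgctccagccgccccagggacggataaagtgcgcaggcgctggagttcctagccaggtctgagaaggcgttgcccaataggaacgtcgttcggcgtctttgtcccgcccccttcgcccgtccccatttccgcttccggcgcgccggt
Cox7a2: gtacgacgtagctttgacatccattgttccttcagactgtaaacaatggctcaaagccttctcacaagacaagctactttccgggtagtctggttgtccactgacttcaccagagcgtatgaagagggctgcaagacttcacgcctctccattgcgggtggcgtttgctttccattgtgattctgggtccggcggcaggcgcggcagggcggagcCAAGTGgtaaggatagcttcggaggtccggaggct
Cox8a: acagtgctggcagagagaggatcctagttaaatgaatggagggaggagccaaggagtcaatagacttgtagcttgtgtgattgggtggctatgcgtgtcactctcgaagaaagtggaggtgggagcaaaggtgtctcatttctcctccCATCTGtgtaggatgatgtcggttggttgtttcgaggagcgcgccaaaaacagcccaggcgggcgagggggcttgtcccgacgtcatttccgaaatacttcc
Of the muscle isoforms, Cox7a1 and Cox8b held 1 E-box each, and that of Cox8b reads CAGCTG, the form that Myod1 prefers. Cox6a1 held 2 overlapping matches to GCGCATGC and no E-box, whereas Cox7a2 and Cox8a held 1 E-box each and neither of the other motifs. Windows of 250 bases were found for 74 of the 94 member names, 79 windows in all. An E-box was present in 63.3% of them and in 66.2% of all 32851 RefSeq windows, and CAGCTG, which is also counted as an E-box, in 7.6% and 13.0%. GCGCATGC was present in 11.4% of member windows and in 2.3% of all windows, and ACTTCCGG in 3.8% and 2.9%. A match describes letters only and says nothing of binding in these cells.

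Respiratory chain messenger RNA was lower on average in Gmppb-KO than in wild-type libraries in every complex, but no member passed the edgeR quasi-likelihood test after Benjamini-Hochberg adjustment over all 12786 tested genes. It called 0 of 88 members, against 5.59% of all tested genes. The log2 fold change of Gmppb-KO over wild-type was below 0 for 77 of the 88, against 43.4% of all tested genes, with a median of -0.51 for the members and 0.11 for all tested genes. At an unadjusted p under 0.05, 17 members were lower, against 9.71% of all tested genes, and 1 was higher, against 10.4%. The 3 and 3 libraries did not overlap for 9 tested members that were lower in Gmppb-KO libraries, against 13.0% of all tested genes, and for 1 that was higher, against 13.1%. Read against these shares, the direction of the fold changes and the count at the unadjusted threshold stood above the background among lower genes, and the counts of calls and of separated groups did not. These shares take in genes of all lengths, while members tend to be shorter than tested genes as a whole. DESeq2 called 2 members, Cox6a2 higher and Cox8a lower, against 10.5% of all tested genes, and limma voom called 0, against 5.53%.

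**Figure D1:**
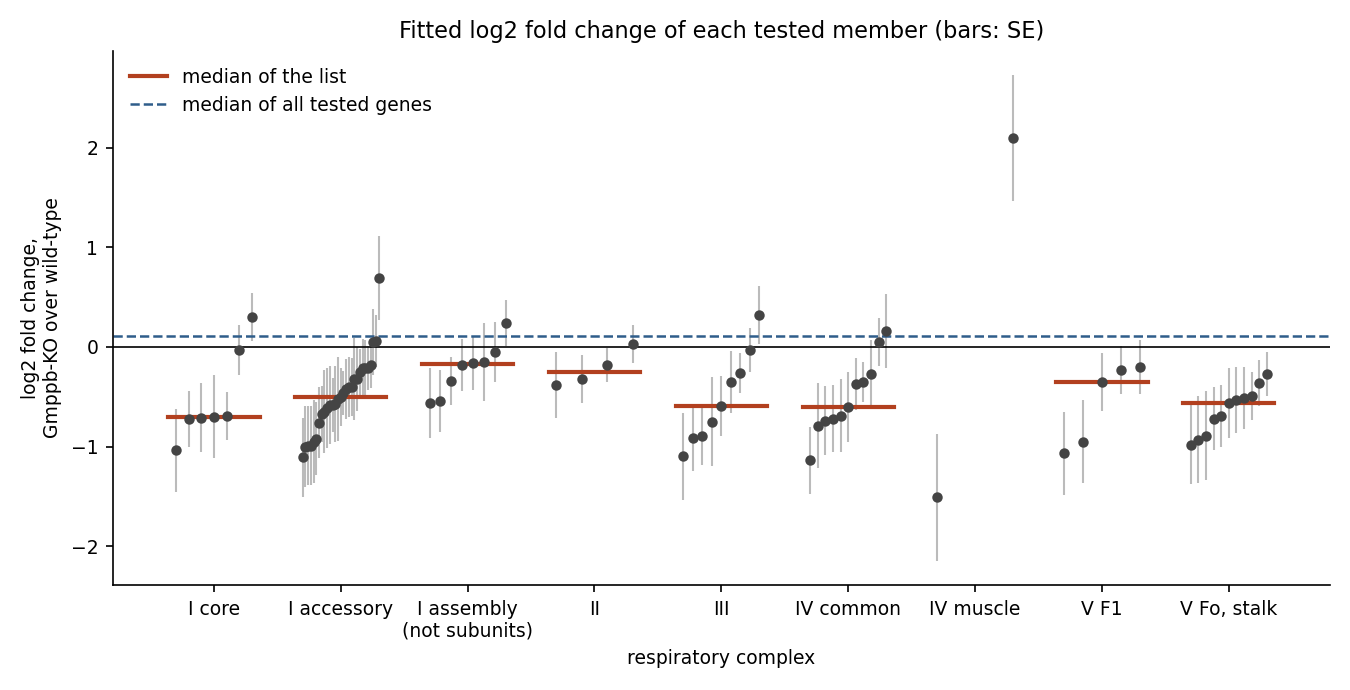
Each point is a tested member, placed by complex, with its fitted log2 fold change of Gmppb-KO over wild-type on the vertical axis and the SE as a bar; red lines are medians of lists with at least 4 tested members and the dashed line is the median of all tested genes. Most points lie below 0, with list medians from -0.70 (complex I core) to -0.17 (complex I assembly factors), and the muscle isoform Cox6a2 stands alone at 2.10.

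The members varied together between libraries of the same genotype. The median over members of the log2 deviation from a gene's mean over the 6 libraries was -0.06, 0.06 and -0.77 in Gmppb-KO replicates 1, 2 and 3, against 0.31, 0.63 and -0.20 in wild-type replicates 1, 2 and 3. Gmppb-KO replicate 3 was lowest and wild-type replicate 2 highest, and wild-type replicate 3 lay below both other Gmppb-KO libraries, so the groups overlapped on this measure. Their summed level was 19379, 20453 and 11394 CPM in Gmppb-KO libraries, against 24411, 30953 and 19392 CPM in wild-type libraries. Members held 1.37% to 2.55% of all counts, depending on the library. Without Gmppb-KO replicate 3 the median log2 fold change of the members was -0.33, and without wild-type replicate 2 it was also -0.33, while without wild-type replicate 3 it was -0.73. The number of members at an unadjusted p under 0.05, 18 with all libraries, was 8 without Gmppb-KO replicate 3, 3 without wild-type replicate 1, 2 without wild-type replicate 2 and 39 without wild-type replicate 3. The share of all tested genes at that threshold is not given for these fits. At the adjusted threshold it was 5.74%, 2.52%, 3.39% and 5.15% in the same order, against 5.59% with all libraries. These counts are therefore not a trait of the members alone.

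**Figure D2:**
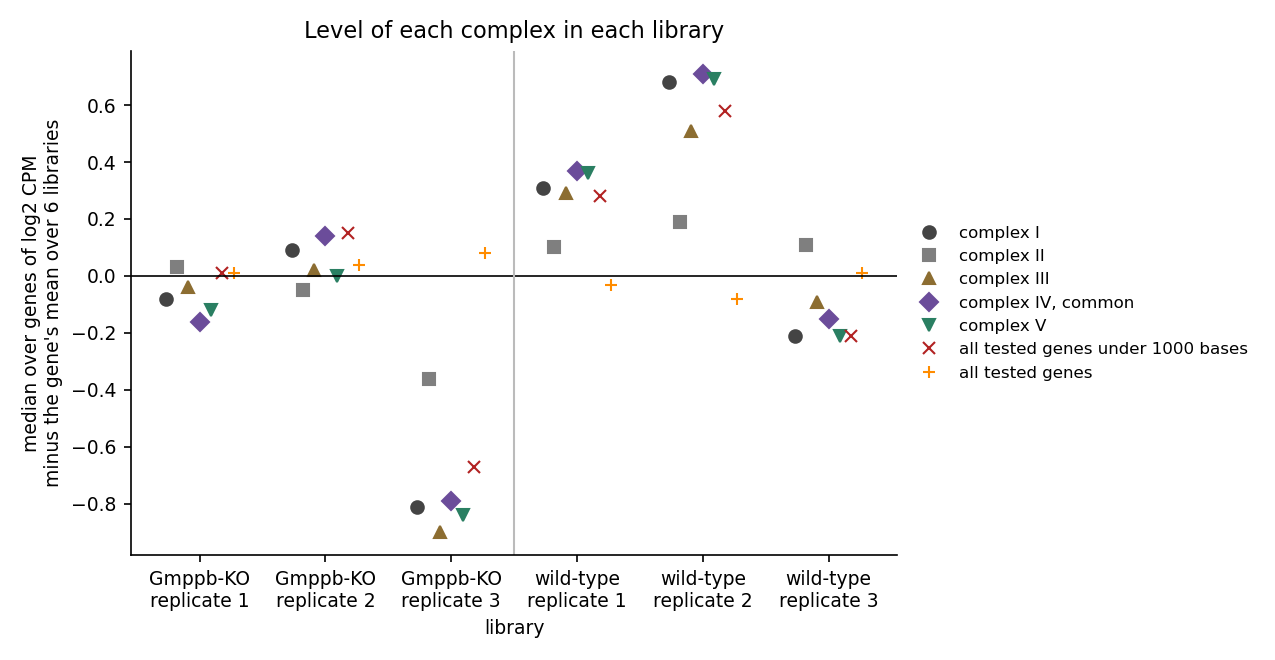
For each library, Gmppb-KO on the left and wild-type on the right, the points give the median over the tested genes of a complex of log2 CPM minus the mean of that gene over the 6 libraries; crosses give all tested genes under 1000 bases and plus signs all tested genes. Complexes I, III, IV and V run together, from -0.90 in Gmppb-KO replicate 3 to 0.71 in wild-type replicate 2, complex II moves less, and short genes as a whole follow the same order of libraries.

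Gene length moved with this order. Members tend to be shorter than tested genes as a whole, with a median deposited length of 1569 bases, against 4143 bases. Of the 95 members, 26 are under 1000 bases. Among tested genes under 1000 bases the median log2 fold change was -0.60 for 21 members and -0.36 for all 956 genes. At 1000 bases or more it was -0.38 for 67 members and 0.14 for all 11830 genes. Members thus had lower medians than all genes in both classes, but the upper class was not matched for length. Median length there was 1972 bases for the members of that class, tested or not, and 4420.5 bases for all its tested genes. Under 1000 bases, 20 of 21 members and 688 of 956 genes were below 0. Lower at an unadjusted edgeR p under 0.05 were 8 of these members and 129 of these genes. At 1000 bases or more, 57 of 67 members and 4864 of 11830 genes were below 0. Lower at that threshold were 9 of these members and 1112 of these genes. Over the 88 members, the correlation of the log2 fold change with gene length was 0.18 (Pearson, log2 length) and 0.28 (Spearman), and over all tested genes it was 0.20 and 0.33. These are descriptions across genes that share the same 6 libraries. After each library's trend with length was removed, the median log2 fold change was -0.36 for the members and 0.03 for all tested genes, and 71 of the 88 were below 0. Cox6a2 (higher) and Cox8a (lower) then passed the test, against 7.76% of all tested genes. With the low-count filter left out, 1 member was called higher and 14 lower of 92 fitted, against 6.68% of 21251 genes.

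**Figure D3:**
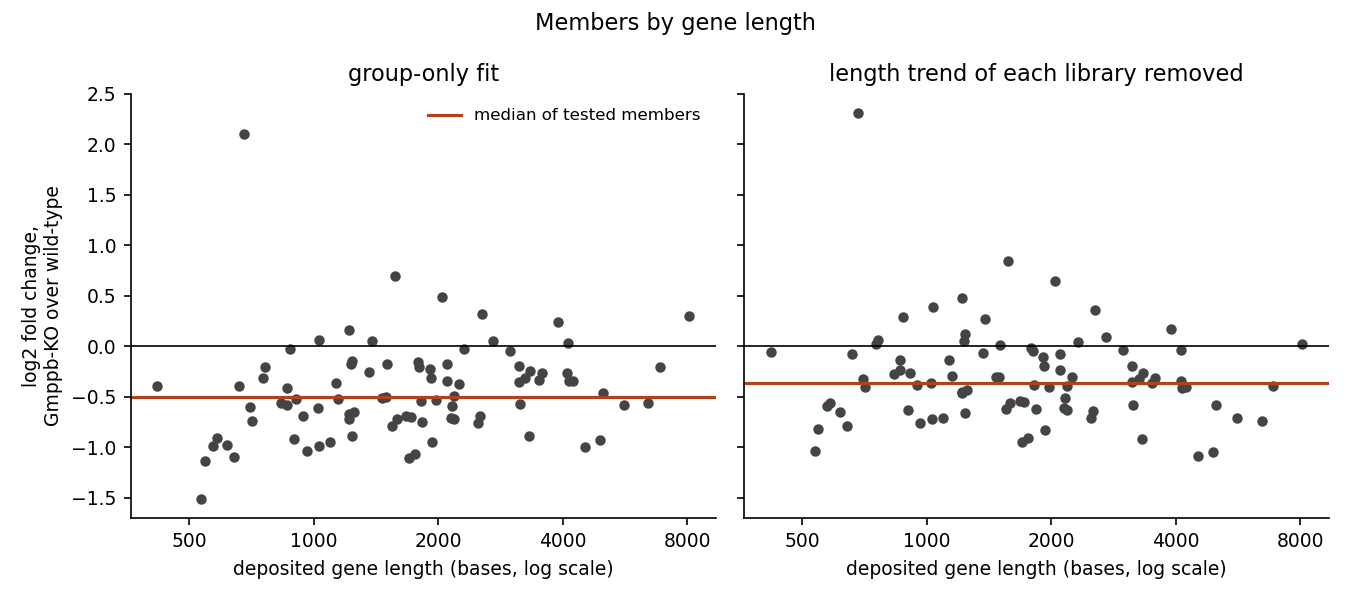
Each point is one of the 88 tested members, with deposited gene length in bases on a log axis and the log2 fold change of Gmppb-KO over wild-type on the vertical axis, on the left from the fit with the group only and on the right after removal of each library's length trend; the red line is the median of the members. The median is -0.51 on the left and -0.36 on the right, and Cox6a2 is the highest point in both panels.

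Complex I, the NADH dehydrogenase, is the largest complex here and had the most members below the unadjusted threshold. Of 36 tested subunits, 32 had a log2 fold change below 0. At an unadjusted edgeR p under 0.05, 10 were lower, against 9.71% of all tested genes, and none was higher, against 10.4%. In complex III, 3 of 9 were lower at that threshold. The median was -0.70 for the 7 core subunits, which carry the redox centres, and -0.50 for the 29 accessory subunits. The summed level was 4285, 4678 and 2438 CPM in Gmppb-KO libraries, against 5514, 7450 and 3879 CPM in wild-type libraries, a ratio of means of 0.677. As background for this and the later ratios, it was 0.889 for all tested genes and 0.612 for all tested genes under 1000 bases.

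Among core subunits, Ndufv1, which binds FMN and accepts electrons from NADH, had 178, 162 and 106 CPM in Gmppb-KO libraries, against 232, 274 and 214 CPM in wild-type libraries. Its log2 fold change was -0.69 ± 0.24 (SE, n = 3 each, edgeR adjusted p = 0.168). Ndufs3, a core subunit of the matrix arm, had 106, 105 and 61.1 CPM in Gmppb-KO libraries, against 147, 188 and 113 CPM in wild-type libraries. For both genes every Gmppb-KO library lay below every wild-type library. Ndufs8, an iron-sulfur subunit, had 216, 235 and 102 CPM in Gmppb-KO libraries, against 363, 560.4 and 209 CPM in wild-type libraries, and had the highest level per length of the complex, 191 in Gmppb-KO and 392 in wild-type cells as CPM per kilobase (RPKM). Here wild-type replicate 3 fell within the Gmppb-KO range, and the log2 fold change was -1.04 ± 0.42 SE. The other 4 core subunits had log2 fold changes from -0.71 to 0.30, with Ndufs1, the largest core subunit, at the upper end.

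Of the accessory subunits, Ndufa7 had the lowest log2 fold change of the complex, -1.11 ± 0.40 (SE, edgeR adjusted p = 0.182). It had 166, 171 and 74.0 CPM in Gmppb-KO libraries, against 276, 428 and 180.4 CPM in wild-type libraries, with no overlap. Ndufb10, of the membrane arm, had 135, 120.4 and 71.4 CPM in Gmppb-KO libraries, against 186, 200.3 and 133 CPM in wild-type libraries. The groups overlapped by the narrow margin between Gmppb-KO replicate 1 and wild-type replicate 3. Ndufb7 and Ndufb9 are also subunits of the membrane arm. Ndufb7 had 156, 172 and 66.4 CPM in Gmppb-KO libraries, against 257, 370.4 and 163 CPM in wild-type libraries. Ndufb9 had 105, 123 and 55.3 CPM in Gmppb-KO libraries, against 191, 270.1 and 101 CPM in wild-type libraries. In each, wild-type replicate 3 lay within the Gmppb-KO range.

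The remaining accessory subunits below the unadjusted threshold were Ndufa2, Ndufa11 and Ndufs6. Ndufa2, of the matrix arm, had 97.9, 132 and 77.1 CPM in Gmppb-KO libraries, against 208, 304 and 98.0 CPM in wild-type libraries. Ndufa11, of the membrane arm, had 119.8, 127 and 51.1 CPM in Gmppb-KO libraries, against 192, 274 and 111 CPM in wild-type libraries. Ndufs6, a zinc-binding subunit of the matrix arm, had 57.0, 66.0 and 32.9 CPM in Gmppb-KO libraries, against 93.5, 143 and 58.6 CPM in wild-type libraries. All 3 overlapped between the groups through wild-type replicate 3, and without that library Ndufa2 passed the edgeR test (log2 fold change -1.40, adjusted p = 0.0489, with 0.0228 to 0.589 over all alternatives). Ndufa2 shares 11.5% of its exon length with Tmco6 on the opposite strand, and the library kit named in the labels does not mark strand.

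Ndufa12, an accessory subunit of the matrix arm, had the highest log2 fold change of complex I, 0.69 ± 0.42 (SE, edgeR adjusted p = 0.37). It had 102, 104 and 34.3 CPM in Gmppb-KO libraries, against 52.4, 62.4 and 33.8 CPM in wild-type libraries. The third library of each group was low, and the groups overlapped. The other 21 accessory subunits had log2 fold changes from -0.76 to 0.06. The 8 assembly factors, which help build complex I and are not part of it, had a median of -0.17. None was at an unadjusted p under 0.05, against 9.71% lower and 10.4% higher among all tested genes. Ndufaf4 was the highest of them, with 21.5, 23.9 and 28.6 CPM in Gmppb-KO libraries, against 22.7, 22.6 and 17.4 CPM in wild-type libraries. Ndufaf8 was the lowest and had the highest level per length, with 28.6, 33.3 and 15.2 CPM in Gmppb-KO libraries, against 40.9, 48.0 and 24.8 CPM in wild-type libraries.

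Complex II, succinate dehydrogenase, had a median log2 fold change of -0.25 over its 4 genes. None was at an unadjusted p under 0.05, against 9.71% lower and 10.4% higher among all tested genes. Sdha, the flavoprotein that oxidises succinate, had 143, 147 and 161 CPM in Gmppb-KO libraries, against 133, 137 and 172 CPM in wild-type libraries, the highest log2 fold change of the complex (0.03 ± 0.19 SE, edgeR adjusted p = 0.934). The sign of this value turned under several other settings, the lowest being -0.17, so no direction is given. Sdhb, the iron-sulfur subunit with the highest level per length, had 338, 361 and 156 CPM in Gmppb-KO libraries, against 373, 443 and 298 CPM in wild-type libraries. The groups overlapped, and Gmppb-KO replicate 3 was the lowest library. The membrane anchor Sdhd, named here after its values were seen, did not overlap between the groups, but by a small margin, with 134, 130.4 and 124 CPM in Gmppb-KO libraries, against 149, 138 and 153 CPM in wild-type libraries (log2 fold change -0.18 ± 0.17 SE). The ratio of summed levels was 0.837, nearest to 1 among the 5 complexes, against 0.889 for all tested genes. The difference between complexes was not tested.

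Complex III, the cytochrome bc1 complex, had a median log2 fold change of -0.59 over 9 tested genes, of which 8 were below 0. Lower at the unadjusted threshold were 3, against 9.71% of all tested genes. These were its small subunits Uqcrh, Uqcr10 and Uqcr11. Uqcrh, the hinge protein beside cytochrome c1, had 173, 207 and 117 CPM in Gmppb-KO libraries, against 327, 392 and 206 CPM in wild-type libraries (log2 fold change -0.89 ± 0.30 SE, edgeR adjusted p = 0.156). Uqcr10 had 163, 165 and 90.8 CPM in Gmppb-KO libraries, against 275, 348 and 162 CPM in wild-type libraries. Uqcr11, the lowest log2 fold change of the complex at -1.10 ± 0.44 SE and the highest level per length, had 172, 206 and 74.5 CPM in Gmppb-KO libraries, against 298, 479.8 and 192 CPM in wild-type libraries. In all 3 genes the overlap came from wild-type replicate 3 alone. The core protein Uqcrc2 had the highest log2 fold change, 0.32 ± 0.29 SE, with 131, 114 and 92.4 CPM in Gmppb-KO libraries, against 85.7, 58.6 and 126 CPM in wild-type libraries. Cyc1, cytochrome c1 itself and named after its values were seen, was separated between the groups, with 537, 528 and 267 CPM in Gmppb-KO libraries, against 649.6, 756 and 608 CPM in wild-type libraries (log2 fold change -0.59 ± 0.30 SE). The ratio of summed levels was 0.66.

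Complex IV, cytochrome c oxidase, gave the members with the smallest p-values. Its 11 common subunits had a median log2 fold change of -0.60, with 9 below 0 and a ratio of summed levels of 0.644. Cox8a, the ubiquitous form of subunit VIII, had 282, 333 and 155 CPM in Gmppb-KO libraries, against 566, 739.6 and 397 CPM in wild-type libraries. Every Gmppb-KO library lay below every wild-type library. The log2 fold change was -1.14 ± 0.34 (SE, n = 3 each, 95% interval -1.82 to -0.47 by a normal approximation that is likely too narrow), with an edgeR adjusted p of 0.111 and a DESeq2 adjusted p of 0.0166. Over all alternatives the adjusted p ran from 0.00467 to 0.317. With the trends in both length and GC content removed, the log2 fold change was -0.45.

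Cox4i1, a regulatory subunit, had 848, 909 and 338 CPM in Gmppb-KO libraries, against 1129.6, 1714 and 768 CPM in wild-type libraries. Cox6a1, the most abundant subunit per length at 738 RPKM in Gmppb-KO cells and 1121 RPKM in wild-type cells, had 587, 683 and 284 CPM in Gmppb-KO libraries, against 747, 999.7 and 613 CPM in wild-type libraries. In both genes wild-type replicate 3 lay within the Gmppb-KO range. Cox6b1, which faces the intermembrane space, had 193, 218 and 114 CPM in Gmppb-KO libraries, against 296, 406 and 176 CPM in wild-type libraries. Cox7a2 had 173, 236 and 123 CPM in Gmppb-KO libraries, against 291, 413 and 157 CPM in wild-type libraries. These 4 genes had log2 fold changes from -0.79 to -0.60, none at an unadjusted p under 0.05.

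Cox7b and Ndufa4 differed from their neighbours in sign. Cox7b had 65.0, 128 and 109.8 CPM in Gmppb-KO libraries, against 97.9, 123 and 49.1 CPM in wild-type libraries (log2 fold change 0.16 ± 0.37 SE). Ndufa4, named for complex I and now placed in complex IV, had 163, 247 and 169.7 CPM in Gmppb-KO libraries, against 198, 211 and 152 CPM in wild-type libraries (log2 fold change 0.05 ± 0.24 SE). The groups overlapped widely in both, and both signs turned under other settings. Cox5a, named after its values were seen, was separated between the groups with 145, 150.3 and 112 CPM in Gmppb-KO libraries, against 174, 194 and 152 CPM in wild-type libraries.

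The muscle isoforms of complex IV were rare in both genotypes and had no common direction. Cox6a2 (chr7:128205435-128206387, mm10) was the single member higher in every Gmppb-KO library, with 44, 64 and 19 counts in Gmppb-KO libraries, against 14, 5 and 7 counts in wild-type libraries. Scaled for depth these were 2.39, 3.58 and 0.896 CPM in Gmppb-KO libraries, against 0.831, 0.337 and 0.41 CPM in wild-type libraries. The lowest Gmppb-KO library, replicate 3, lay just above wild-type replicate 1. The log2 fold change was 2.10 ± 0.63 (SE, n = 3 each, 95% interval 0.86 to 3.33 by the same approximation), a 4.27-fold higher level. The edgeR adjusted p over all tested genes was 0.112. DESeq2 gave an adjusted p of 0.046, and without Gmppb-KO replicate 3 edgeR gave 0.0402. Over all alternatives the adjusted p ran from 0.025 to 0.344. The low-count filter kept Cox6a2 through the Gmppb-KO libraries, the group where it was higher, and left out Cox8b, which was lower there. The p-values of Cox6a2 are to be read with this limit. Cox6a2 shares 10.3% of its exon length with Itgad on the opposite strand, and Itgad had 0 counts in all libraries.

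Cox7a1 (chr7:30184144-30186078) had 9, 11 and 15 counts in Gmppb-KO libraries, against 44, 32 and 8 counts in wild-type libraries. Wild-type replicate 3 was the lowest of all 6, so the groups overlapped, and the log2 fold change of -1.51 ± 0.64 SE had an edgeR adjusted p of 0.235. Cox8b (chr7:140898945-140900446) had 0 counts in each Gmppb-KO library, against 9, 18 and 7 counts in wild-type libraries. Set against a floor of 3 counts over the Gmppb-KO group, Cox8b was at least 13.4-fold lower in Gmppb-KO cells. It did not pass the low-count filter of the main test, and edgeR without that filter gave an adjusted p of 0.00253. The 3 muscle genes, all on chromosome 7, thus did not share a direction.

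**Figure D4:**
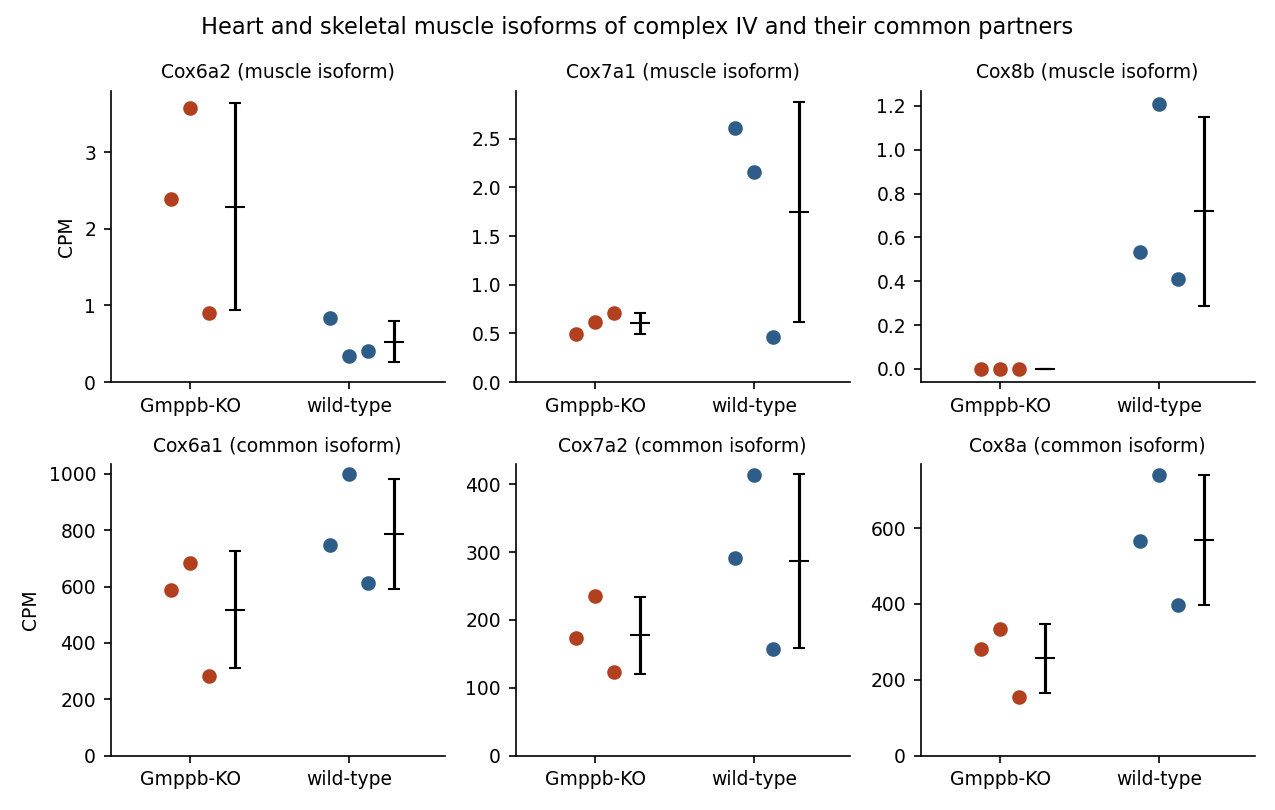
Points are CPM of single libraries, Gmppb-KO left and wild-type right, with the mean and SD beside them, for the muscle isoforms in the upper row and their common partners in the lower row; each panel has its own linear axis from 0. Cox6a2 lies higher in the Gmppb-KO libraries, Cox8b is at 0 in all of them, Cox7a1 overlaps through wild-type replicate 3, and the axis scales show that the common forms are far more abundant.

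As a share of each isoform pair, counted per length, Cox6a2 made up 0.428 ± 0.108% in Gmppb-KO cells and 0.0728 ± 0.0401% in wild-type cells (SD, n = 3 each). The single values were 0.419%, 0.539% and 0.324% in Gmppb-KO libraries, against 0.115%, 0.0348% and 0.0689% in wild-type libraries, and they did not overlap. The Cox7a1 share was 0.653 ± 0.304% in Gmppb-KO cells and 1.00 ± 0.524% in wild-type cells, which overlapped. Cox8b made up 0 of 14416 counts of its pair in Gmppb-KO cells, which allows a share of up to 0.0315%, against 0.182 ± 0.0573% in wild-type cells. This limit covers counting error only. In both genotypes the common form thus supplied nearly all messenger RNA of each pair. The forms restricted to other tissues were also rare. Cox7b2 and Cox8c had 0 counts in all libraries, Cox4i2 had 2 counts in Gmppb-KO cells and 1 in wild-type cells, and Cox6b2 had 4 and 4. Ndufa4l2, a hypoxia-induced relative of Ndufa4, had 18 counts in Gmppb-KO cells and 25 in wild-type cells. Cox7a2l, which joins complexes III and IV in supercomplexes, had a log2 fold change of -0.52.

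Complex V, the ATP synthase, had 16 tested subunits, and all 16 had log2 fold changes below 0, from -1.07 to -0.20. The median was -0.35 for the 5 subunits of the catalytic F1 head and -0.56 for 11 of the membrane part Fo and the stalks. The summed level was 8566, 8530 and 5098 CPM in Gmppb-KO libraries, against 10329, 12429 and 9030 CPM in wild-type libraries, which did not overlap, a ratio of means of 0.698. Atp5b, the catalytic beta subunit and the most abundant member per length in complex V, had 3199, 2998 and 1947 CPM in Gmppb-KO libraries, against 3239.6, 3585 and 3524 CPM in wild-type libraries. The groups were separate but adjoining, with a log2 fold change of -0.35 ± 0.29 (SE, edgeR adjusted p = 0.495). Atp5a1, the alpha subunit, had 1003, 856 and 652 CPM in Gmppb-KO libraries, against 863, 820.3 and 1194 CPM in wild-type libraries. Its overlapping values gave the log2 fold change nearest to 0 in the complex, -0.20 ± 0.27 SE.

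Of the 16 tested subunits of complex V, 2 were lower at the unadjusted threshold, against 9.71% of all tested genes. These were the small subunits Atp5e and Atp5k. Atp5e, the epsilon subunit of the central stalk, had 206, 221 and 101 CPM in Gmppb-KO libraries, against 372, 543 and 193 CPM in wild-type libraries (log2 fold change -1.07 ± 0.42 SE, edgeR adjusted p = 0.211). Atp5k, the e subunit that takes part in dimer formation, had 53.9, 60.6 and 25.4 CPM in Gmppb-KO libraries, against 91.2, 131 and 53.3 CPM in wild-type libraries (log2 fold change -0.98 ± 0.40 SE). In both, wild-type replicate 3 lay within the Gmppb-KO range.

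The c ring, the rotor turned by protons, is encoded by 3 genes whose mature proteins are the same and whose import sequences differ. Atp5g1 had 286, 316 and 134 CPM in Gmppb-KO libraries, against 444, 718 and 243 CPM in wild-type libraries. Atp5g2 had 581, 628 and 328 CPM in Gmppb-KO libraries, against 849, 1008 and 628 CPM in wild-type libraries. Atp5g3 had 506, 488 and 309 CPM in Gmppb-KO libraries, against 595, 607 and 627 CPM in wild-type libraries, the one c ring gene without overlap. Their log2 fold changes were -0.93 ± 0.44, -0.69 ± 0.31 and -0.49 ± 0.24 SE in this order. Counted per length, Atp5g2 supplied 54.9 ± 1.5% of c ring messenger RNA in Gmppb-KO cells and 56.5 ± 3.35% in wild-type cells. Atp5g3 supplied 36.3 ± 2.55% in Gmppb-KO cells and 32.9 ± 6.78% in wild-type cells. Atp5g1 supplied 8.78 ± 1.15% in Gmppb-KO cells and 10.5 ± 3.64% in wild-type cells (SD, n = 3 each). The shares differed by less than the larger SD in each case.

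The naming rule leaves out some subunits. Usmg5, a small Fo subunit now also called Atp5md, had 144, 233 and 119 CPM in Gmppb-KO libraries, against 302, 428 and 131 CPM in wild-type libraries (log2 fold change -0.79 ± 0.43 SE, edgeR adjusted p = 0.331). Ndufb1-ps, listed under a non-coding biotype, had a log2 fold change of -0.41 ± 0.30 SE. A further 12 rows with member-like names were pseudogenes by their listed biotype, the highest with 1550 counts in total. Reads shared with near-identical copies may therefore be split. By the GENCODE M21 annotation, in which 89 of the 95 members have the same start and end as in the deposited table, 32 members share exon sequence with another gene and 12 share at least 10% of their length.

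Among other genes of oxidative metabolism, 1 passed the test. Of 12 tested subunits encoded by mitochondrial DNA, edgeR, DESeq2 and limma voom called 0, against 5.59%, 10.5% and 5.53% of all tested genes. The median log2 fold change was -0.53. At an unadjusted edgeR p under 0.05, 3 were lower, against 9.71% of all tested genes. The single gene without overlap between the groups, mt-Nd4l, was higher in Gmppb-KO libraries at a low level. It had 1.25, 1.79 and 0.943 CPM there, against 0.891, 0.877 and 0.819 CPM in wild-type libraries (log2 fold change 0.62 ± 0.43 SE). Mt-Nd3 and mt-Nd6, subunits of complex I, had log2 fold changes of -1.34 ± 0.50 and -0.88 ± 0.36 SE. Near-identical nuclear copies of mitochondrial genes exist, so these counts are uncertain. The summed level of this list was 12201, 16287 and 13530 CPM in Gmppb-KO libraries, against 19431, 19523 and 13791 CPM in wild-type libraries, with overlap through wild-type replicate 3.

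The lists around the complexes lay nearer to the median of all genes, but their genes were also longer than the members. In the order below, median lengths were 2249, 2793, 3055, 4685 and 3924.5 bases, against 1569 bases for the members. With the length trend removed, the median log2 fold changes were 0.26, 0.09, -0.13, -0.04 and -0.16, against -0.36 for the members. The part of length in this contrast was not tested. Complex IV assembly factors had a median of 0.25 over 17 tested genes, and assembly factors of the other complexes outside the naming rule had a median of 0.03 over 18. Cox14 (-0.58 ± 0.27 SE) and Coa5 (0.43 ± 0.21 SE) had the smallest p-values of the first list, and the assembly factor Uqcc2 of complex III (-0.96 ± 0.44 SE) and Tmem126b of complex I (0.60 ± 0.27 SE) those of the second. Electron carriers and inner membrane transporters had a median of -0.04 over 13 tested genes, with Atpif1, the inhibitor of ATP hydrolysis by complex V, at -0.61 ± 0.30 SE and Coq9 of ubiquinone synthesis at -0.38 ± 0.23 SE. Regulators of mitochondrial biogenesis had a median of 0.11 over 13 tested genes, with the DNA helicase Twnk at -0.50 ± 0.24 SE and the DNA polymerase Polg at 0.44 ± 0.22 SE. In these 4 lists edgeR, DESeq2 and limma voom called 0 genes, against 5.59%, 10.5% and 5.53% of all tested genes. At an unadjusted p under 0.05 edgeR gave 0, against 9.71% lower and 10.4% higher among all tested genes. The 16 tricarboxylic acid cycle genes had a median of 0.01, with 8 below and 8 above 0. At an unadjusted edgeR p under 0.05, 1 was lower and 3 were higher, against 9.71% and 10.4% of all tested genes. Idh3b, a subunit of NAD-dependent isocitrate dehydrogenase, was the 1 gene of this list called by edgeR. It was lower, with 110.0, 108 and 84.0 CPM in Gmppb-KO libraries, against 196, 203 and 154 CPM in wild-type libraries (log2 fold change -0.87 ± 0.21 SE, edgeR adjusted p = 0.0473). This call was lost under limma voom and in each fit that left out 1 library, except the fit without wild-type replicate 3.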

How the data were processed

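RNA of 3 Gmppb-KO and 3 wild-type libraries was sequenced, and read counts per gene were analysed. Per the file headers, the counts deposited by the authors are whole numbers, one column a library, without normalization. Subread and its featureCounts, HISAT2, FastQC, DESeq2 and mouse build mm10 are listed in the submitters' processing notes. Which annotation was used and whether counting used strand is not given in the sources used here. Another value of the deposited table, the gene length in bases, served for levels per length and length trends. A further 6 columns of per-library values (FPKM) were not used. The 201 loci without a gene name, 0.0699% to 0.195% of a library's counts, were left out.

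The gene test used R 4.3.3 and edgeR 4.0.16 (TMM scaling, filterByExpr, quasi-likelihood F test, 2-sided, group as the only term), with Benjamini-Hochberg adjustment over 12786 genes and a threshold of 0.05. CPM is the count per 1000000 of the normalized library size, RPKM is CPM per kilobase of gene length, and SE comes from the F statistic. Isoform shares are counts per length of 1 isoform over the sum of both. The 17 alternatives of the gene test used DESeq2 1.42.0, limma 3.58.1 (voom), 3 other scalings, 2 other filters, a replicate block, offsets that remove trends with length (5 spline degrees of freedom) alone and with GC content (known for 99.9% of tested genes), block and length together, and each library left out; GC and the combined fit were chosen after seeing the data. The steps were tested on simulated counts. Members, lists, tests and the rule for naming genes were chosen with earlier results of these data known. Named with single values were all complex IV isoform pairs, the c ring genes, members below an unadjusted p of 0.05 or past the adjusted threshold, and in each complex the highest and lowest log2 fold change and the highest level per length; of other lists, genes past the test or otherwise those with the smallest p-values. Groups of 3 libraries limit precision, and floors of 3 counts cover counting error only.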

Additional observations from a re-analysis of the deposited data

How the results depend on the processing

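The median log2 fold change of the members was below 0 under all 17 alternatives, from -0.73 to -0.33. Scaling by library size alone gave a median of 0.27 for all tested genes, against 0.11 in the edgeR test as reported, and -0.34 for the members, with 73 of 88 below 0. Leaving out each library in turn gave a median of -0.46 to -0.09 for the complex I assembly factors and -0.44 to -0.17 for complex II, and library size scaling gave -0.10 for complex II. Calls depended more on the setting. Against 0 called by edgeR, DESeq2 called 1 higher (Cox6a2) and 1 lower (Cox8a, a common subunit of complex IV), as did removal of the length trend, while removal of the length and GC trends gave 1 higher (Cox6a2) and 1 lower (Uqcrh of complex III), while 9.49% of all tested genes were called. Without the low-count filter 1 was higher, the muscle isoform Cox6a2, and 14 lower, namely 1 core and 6 accessory subunits of complex I, 3 of complex III, 1 common subunit and 1 muscle isoform of complex IV, and 1 each of F1 and Fo. Leaving out each library in turn gave 0 to 1 higher (Cox6a2, without Gmppb-KO replicate 3) and 0 to 1 lower (Ndufa2, without wild-type replicate 3), while 2.52% to 5.74% of all tested genes were called.

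Whether the replicate numbers of the labels pair the libraries is not stated in the sources used here. The deviations of same-numbered libraries correlated at -0.18, 0.51 and 0.42. Gmppb-KO replicates 2 and 3 correlated best with the wild-type library of their own number, and replicate 1 did not, so these values cannot decide it. With the replicate number as a block, 0 of 88 members were higher and 31 lower, while 12.7% of all tested genes were called, with 5 core and 9 accessory subunits of complex I, 4 of complex III, 5 common subunits of complex IV, and 2 of F1 and 6 of Fo. With the block and the length trend removed, 2 were higher (1 accessory subunit of complex I and Cox6a2) and 18 lower (3 and 6 of complex I, 2 of complex III, 1 of complex IV, 2 of F1 and 4 of Fo), while 12.3% of all tested genes were called. Among the other lists, the block called 2 mitochondrially encoded subunits, 1 assembly factor outside complex IV and 1 carrier lower, and 1 tricarboxylic acid cycle gene higher and 2 lower; with the length trend also removed it called 1 such assembly factor lower and 1 cycle gene higher. The fit without the low-count filter called 1 mitochondrially encoded subunit and 1 such assembly factor lower. For cycle genes limma voom called 0 lower, and leaving out each library gave 0 to 1 lower and 0 to 1 higher.

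Some uncalled genes changed sign. Sdha was at -0.04 under DESeq2, RLE scaling, no low-count filter and length removal with or without the block, -0.01 under upper quartile scaling, -0.17 with length and GC removed, and -0.07 to 0.07 with 1 library left out. Ndufa4 was at -0.03 under DESeq2 and RLE scaling, -0.01 without the filter, -0.15 with length and GC removed, and -0.17 to 0.10 with a library left out. Cox7b ranged over -0.21 to 0.42 with a library left out. With length and GC removed, Cox6a1 and Ndufaf8 were at 0.07 and Ndufaf4 at -0.25. The wild-type share of Cox8b was 0.12% when counts were not divided by length. Where values changed, the cause was not tested. Depth limits the muscle isoforms, with 0 to 64 counts in a library, and the other restricted isoforms of complex IV.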
